A study of Mus musculus with 2 samples.

Results

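The 8 genes described here encode proteins that build lamellar bodies, process surfactant or sit at the apical surface of alveolar type 2 (AT2) cells: Abca3, Lamp3, Lpcat1, Napsa, Slc34a2, Ctsh, Pla2g1b and Muc1. They were found by symbol in the gene list of both libraries, 8 of 28692 gene rows, and each symbol matched 1 row. The data were droplet single-cell RNA sequencing of lung epithelial cells sorted as CD45- and SftpC+, with 1 library per group. The tumor-bearing library came from wild type C57BL/6 lung at day 14 after subcutaneous injection of 1000000 luciferase-labelled LLC cells (Lewis lung carcinoma, a transplantable mouse lung cancer line) on the dorsum. The control library came from non-treated wild type C57BL/6 lung. The number, age and sex of the mice behind each library were not given in the sources used here. With 1 library per group there was no replicate check, so no test between the groups was possible. All intervals given are exact 95% intervals that cover counting error only.

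AT2 cells are cuboidal cells of the alveolus that make pulmonary surfactant, the lipid and protein film that lowers surface tension and keeps air spaces open. Surfactant is assembled and stored in lamellar bodies, lysosome-related organelles that take up phospholipid across their limiting membrane, mature the precursors of the hydrophobic surfactant proteins B and C in an acid lumen, and release their content by exocytosis. Abca3 is the phospholipid transporter of the lamellar body membrane, and Lamp3 is a lysosome-associated glycoprotein of the same membrane. Lpcat1 is an acyltransferase that remodels phosphatidylcholine into its disaturated form, and Pla2g1b is a secreted phospholipase. Napsa is an aspartic protease and Ctsh a cysteine protease, both known from the processing of surfactant protein precursors. Slc34a2 is a sodium-dependent phosphate transporter and Muc1 a transmembrane mucin, both of the apical membrane.

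On the mm10 build Abca3 lies on chromosome 17 at 24351950 to 24410201 on the plus strand, Lamp3 on chromosome 16 at 19653378 to 19706375 on the minus strand, and Lpcat1 on chromosome 13 at 73467197 to 73516422 on the plus strand. Napsa lies on chromosome 7 at 44572380 to 44586862, Ctsh on chromosome 9 at 90054152 to 90076089, and Muc1 on chromosome 3 at 89229057 to 89233381, all on the plus strand. Slc34a2 at 53038081 to 53071664 and Pla2g1b at 115466262 to 115474722 are both on chromosome 5, plus strand. All 8 are annotated as protein coding.

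Proximal promoters, the 250 bases before the transcription start in RefSeq on GRCm38.p6, were at hand for 6 of the 8 genes, Abca3, Lamp3, Lpcat1, Slc34a2, Pla2g1b and Muc1. They were searched on both strands for 6 short motifs of factors known from AT2 cells or of general promoters. The core site of NKX2 factors was searched as CAAGTG. The core site of forkhead factors was searched as TGTTTAC. The half-site pair of C/EBP factors was searched with any base at N, as TTGCNNAA. The E-box was searched in its palindromic form, CACGTG. The site of AP-1 was searched with any base at N, as TGANTCA. The TATA box was searched in its short form, TATAAA. Each promoter shown held 1 match, so no matches overlap. The 3 promoters with a match are printed 5′ to 3′ on the strand of the gene, because they are the ones where a searched motif can be shown, and the capitals mark the match.
Lamp3, chr16:19706366-19706615, minus strand: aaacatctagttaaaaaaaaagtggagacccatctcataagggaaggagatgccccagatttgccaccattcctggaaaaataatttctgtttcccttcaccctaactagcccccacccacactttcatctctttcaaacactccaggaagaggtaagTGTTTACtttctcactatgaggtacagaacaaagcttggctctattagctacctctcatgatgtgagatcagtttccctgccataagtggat
Slc34a2, chr5:53049103-53049352, plus strand: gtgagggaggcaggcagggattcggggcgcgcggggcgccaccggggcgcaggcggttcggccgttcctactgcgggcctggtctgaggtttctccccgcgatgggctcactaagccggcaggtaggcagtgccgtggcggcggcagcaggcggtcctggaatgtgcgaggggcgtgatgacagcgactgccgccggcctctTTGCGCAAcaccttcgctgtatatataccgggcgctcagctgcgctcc
Muc1, chr3:89228806-89229055, plus strand: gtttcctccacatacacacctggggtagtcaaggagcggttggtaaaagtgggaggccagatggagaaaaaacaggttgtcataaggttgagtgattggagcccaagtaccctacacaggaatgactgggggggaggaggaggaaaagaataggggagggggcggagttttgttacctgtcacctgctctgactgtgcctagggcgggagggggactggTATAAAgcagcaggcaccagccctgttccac
The forkhead core of Lamp3 begins 92 bases before the start, the C/EBP pair of Slc34a2 48 bases and the TATA box of Muc1 31 bases. Of 32851 promoters of the same length, 3.17% held the forkhead core, 9.56% the C/EBP pair and 12.4% the TATA box. The NKX2 core was in 11.6%, the E-box in 6.02% and the AP-1 motif in 6.75%, and none of these 3 was in the 6 promoters searched. The promoters differed in base composition, with 42.4% G and C in Lamp3, 69.6% in Slc34a2 and 54.8% in Muc1, against a median of 52.4% over all promoters. The RefSeq start of Slc34a2 lies inside the gene as GENCODE draws it, and the last 10 bases printed for Lamp3 and the last base for Slc34a2 lie in GENCODE exons. A match is a run of letters in this window and no measure of binding.

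Total depth was 84448360 unique molecular identifiers (UMIs, 1 for each transcript caught) in the tumor-bearing library against 91498124 in the control library. Barcodes with at least 2000 UMIs numbered 8193 in the tumor-bearing library against 11007 in the control library. AT2 cells were those in which Sftpc made up at least 15% of UMIs, 6729 (82.1%) of them in the tumor-bearing library against 10008 (90.9%) in the control library, and the other 1464 and 999 were called non-AT2 cells. Median depth of AT2 cells was 8976 UMIs in the tumor-bearing library against 6939 in the control library, and 128 barcodes were shared between the libraries. In AT2 cells the surfactant genes were high, with Sftpc at a median of 26.7% of UMIs in the tumor-bearing library against 26.4% in the control library, and Sftpa1 at 32276 and 31098 CPM, where CPM are UMIs scaled to a total of 1000000. Of these cells, 87.5% and 92.6% fell into clusters named AT2-like from markers that include Sftpc and none of the 8 genes. Markers of other cell types in AT2 cells differed between the libraries. The 8 club cell markers summed to 15717 and 12643 CPM, the 8 endothelial markers to 173 and 41.1 CPM, the 7 fibroblast markers to 52.7 and 19.2 CPM, and the 4 red cell markers to 51.6 and 233.9 CPM, in the tumor-bearing and control libraries in that order. The level of Scgb1a1, a club cell gene, in AT2 cells was 5.53% of its level in empty droplets in the tumor-bearing library against 17.9% in the control library, an estimate of the share of free RNA if AT2 cells make none of it. The part of depth and of these markers in the differences between libraries given below was not tested. Values without cells over 1% of UMIs from these markers, or without clusters that carry them, are given as a description.

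Among the proteins of the lamellar body membrane, Abca3 had nearly the same level in both libraries and Lamp3 was slightly higher in the tumor-bearing one. In AT2 cells Abca3 stood at 364 CPM (359 to 369) in the tumor-bearing library against 361 CPM (356 to 365) in the control library, from 22898 and 26149 UMIs, with overlapping intervals. Lamp3 stood at 579 CPM (573 to 585) in the tumor-bearing library against 537 CPM (532 to 542) in the control library, 1.08-fold (1.06 to 1.09). Among the lipid enzymes, Lpcat1 had the widest ratio of the 8 genes, with 577 CPM (572 to 583) in the tumor-bearing library against 484 CPM (479 to 489) in the control library, 1.19-fold (1.18 to 1.21). That ratio lay above those of 93.3% of the 1785 genes compared. Pla2g1b stood at 544 CPM in the tumor-bearing library against 527 CPM in the control library, 1.03-fold (1.02 to 1.05). Of the proteases, Napsa reached 2409 CPM in the tumor-bearing library against 2221 CPM in the control library, 1.08-fold (1.08 to 1.09), and Ctsh 850 CPM in the tumor-bearing library against 807 CPM in the control library, 1.05-fold (1.04 to 1.07). The proteins of the apical membrane had ratios below 1. Slc34a2 stood at 2037 CPM in the tumor-bearing library against 2208 CPM in the control library, 0.923-fold (0.916 to 0.930), and Muc1 at 347 CPM in the tumor-bearing library against 382 CPM in the control library, 0.910-fold (0.894 to 0.927).

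A difference between the libraries was counted when a gene had at least 50 CPM in either one, a level at least 25% higher or 20% lower and Poisson intervals that did not overlap. By this rule 0 of the 8 genes differed, against 3.92% of the 1785 genes compared that were higher in the tumor-bearing library and 3.31% that were lower. With a limit of 1.1-fold, Lpcat1 was higher, against 13.8% of genes higher, and no member was lower, against 22.4% of genes lower. With a limit of 1.5-fold, 1.01% of genes were higher and 0.84% lower, and no member was either. The median log2 ratio of the members was 0.06, with 6 above and 2 below 0. Over all 1785 genes compared the median was -0.05, with 650 above and 1135 below 0. Among the 6 was Abca3, whose fold of 1.01 had an interval of 0.991 to 1.03 that included 1. With the AT2 cells left out that had over 1% of UMIs from markers of another cell type, 440 were kept in the tumor-bearing library against 2901 in the control library, and the median of the members was -0.030. There the log2 ratio was -0.13 for Abca3 and -0.14 for Pla2g1b, both below 0. The 8 club markers alone summed to 15717 and 12643 CPM over all AT2 cells, so this limit left out most AT2 cells. Among them is Cbr2, which correlated with Pla2g1b across AT2 cells (0.076 and 0.066). Whether the cells left out carried RNA of other cells or their own was not tested. Among the 4 surfactant protein genes Sftpc had a ratio of 1.00, Sftpb 1.02, Sftpa1 1.04 and Sftpd 1.11. All 12 of these genes lay inside the 25% and 20% limits. This describes 2 libraries, and differences between mice cannot be told apart from those between groups.

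**Figure D1:**
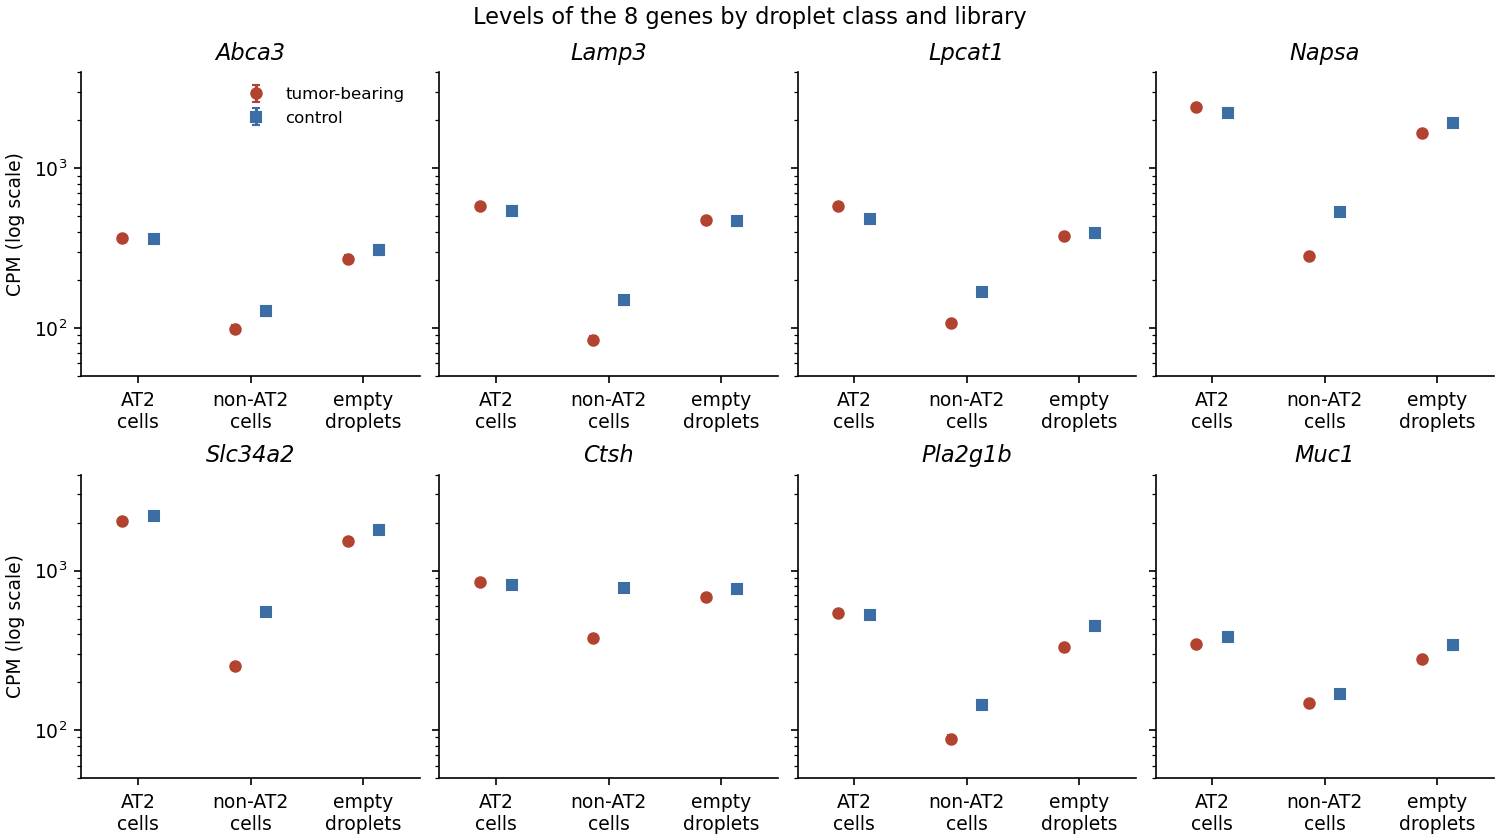
Levels of the 8 genes in CPM on a log scale, by droplet class and library, with exact 95% Poisson intervals, which are mostly smaller than the symbols. In each panel the circles are the tumor-bearing and the squares the control library. AT2 cells and empty droplets lie close together for every gene, non-AT2 cells lie lower, and Ctsh in the control library is the exception, at 807 CPM in AT2 and 780 CPM in non-AT2 cells.

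All 8 genes were higher in AT2 cells than in non-AT2 cells in both libraries, and 7 of the 8 at least 2-fold in both, against 4.57% of 2842 genes compared in the same way. Lower by 2-fold or more in both were 16.6% of the genes and no member. The classes were set by Sftpc, so these folds describe the classes and were not tested. Napsa was 8.49-fold (8.21 to 8.77) higher in AT2 cells of the tumor-bearing library against 4.18-fold (4.05 to 4.33) in those of the control library, and Slc34a2 8.03-fold and 3.997-fold. Lamp3 was 6.88-fold and 3.60-fold higher, Pla2g1b 6.21-fold and 3.66-fold, Lpcat1 5.41-fold and 2.89-fold, and Abca3 3.67-fold and 2.82-fold, in the tumor-bearing and control libraries in that order. For each of these 6 genes the fold was larger in the tumor-bearing library, as it was for Sftpc itself, at 8.78 and 5.07. Muc1 was 2.36-fold higher in AT2 cells of the tumor-bearing library against 2.26-fold in those of the control library. Ctsh was 2.24-fold (2.18 to 2.31) higher in the tumor-bearing library and 1.03-fold (1.01 to 1.06) in the control library. The non-AT2 class was a different mixture in each library, with 317 club-like, 490 endothelial-like and 180 AT1-like droplets in the tumor-bearing library against 119, 54 and 360 in the control library, so its folds cannot be told apart from its make-up. They also moved with the limit on Sftpc. With AT2 cells set at 10% of UMIs from Sftpc or more, Slc34a2 was 15.7-fold higher in the tumor-bearing library against 9.58-fold in the control library, Napsa 13.5-fold and 7.59-fold, Lamp3 12.5-fold and 7.81-fold, Pla2g1b 9.0035-fold and 7.195-fold, Lpcat1 8.46-fold and 4.401-fold, and Abca3 4.68-fold and 4.12-fold. Against non-AT2 cells with under 5% of UMIs from Sftpc, Slc34a2 was 24.99-fold higher in AT2 cells of the tumor-bearing library against 17.5-fold in the control library. In the same setting Napsa was 18.5-fold and 10.6-fold higher, Lamp3 18.4-fold and 14.7-fold, Pla2g1b 11.6-fold and 10.8-fold, Lpcat1 10.4-fold and 5.88-fold, and Abca3 5.45-fold and 5.23-fold. Ctsh was 2.90-fold and 1.31-fold higher, and Muc1 2.87-fold and 4.02-fold, here with the larger fold in the control library. With AT2 cells set at 25% of UMIs from Sftpc or more, which moves many AT2 cells into the other class, the folds of the 8 genes lay between 1.12 and 1.79 in the tumor-bearing library against 0.949861 to 1.417 in the control library, and 0 of 2116 genes were 2-fold higher in both. With at least 5000 UMIs per cell Muc1 was 2.07-fold and 1.97-fold higher and so missed 2-fold in the control library, which left 6 members, against 4.46% of 2669 genes.

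The level of a member in empty droplets, barcodes with 1 to 100 UMIs that hold RNA free in the suspension, was close to that in AT2 cells. AT2 cells exceeded empty droplets by 1.64-fold for Pla2g1b, 1.52-fold for Lpcat1, 1.46-fold for Napsa, 1.34-fold for Abca3 and for Slc34a2, 1.246-fold for Ctsh and for Muc1, and 1.21-fold for Lamp3 in the tumor-bearing library. In the control library the same folds ran from 1.06 for Ctsh to 1.23 for Lpcat1. By a 2-fold limit 0 of the 8 genes were higher in AT2 cells than in empty droplets in both libraries, against 0.0506% of 1978 genes, and none was lower, against 2.98% of genes. Sftpc was 1.398-fold higher in AT2 cells in the tumor-bearing library against 1.12-fold in the control library.

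Across the Sftpc limit every member but Ctsh was lower just outside than just inside in both libraries. The intervals overlapped for Muc1 in the tumor-bearing library. Ctsh was lower just outside in the tumor-bearing library, with overlapping intervals, and higher in the control library. Cells just inside the limit, with 15% to 20% of UMIs from Sftpc, had 1742 CPM of Napsa in the tumor-bearing library against 1723 in the control library. Cells just outside the limit, with 10% to 15%, had 1207 and 1248 CPM. For Slc34a2 the levels were 1841 CPM in the tumor-bearing library against 2278 in the control library just inside, and 1334 and 1514 CPM just outside. Ctsh in the tumor-bearing library stood at 293 CPM in cells with under 5% of UMIs from Sftpc, 581 CPM at 5% to 10%, 899 CPM at 10% to 15% and 934 CPM at 15% to 20%. In the control library it was highest at 5% to 10%, with 614, 1358, 968 and 887 CPM in the same bins. In cells with under 5% from Sftpc, Slc34a2 stood at 81.5 CPM in the tumor-bearing library against 126 CPM in the control library. Above the limit Napsa went on climbing with the share, to 2738 CPM in the tumor-bearing library against 2551 in the control library in cells with 30% or more from Sftpc, while Ctsh there was at 805 and 781 CPM.

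Clustering of both libraries together, with the 8 genes and Sftpc left out of the genes used, split AT2 cells mainly into 3 clusters. They were led by Cxcl1 and Lyz1, a chemokine and a lysozyme, by Scd1 and Apoc1, a fatty acid desaturase and an apolipoprotein, and by Cd74 and H2-Aa, genes of MHC class II presentation. They held 2870, 1713 and 1302 AT2 cells in the tumor-bearing library against 3398, 3126 and 2741 in the control library. At resolution 1.0 AT2-like clusters led by Nrn1 held 159 and 188 AT2 cells of the tumor-bearing library against 2684 and 2203. Those led by Lyz1 held 2232 and 1463 against 425 and 194. The cluster led by Sftpd held 901 against 1854, and the one led by Areg 664 against 1296. The libraries were not aligned before clustering, so a cluster need not hold matched cells of both. Abca3 was highest in the Scd1 cluster, at 435 CPM in the tumor-bearing library against 430 in the control library, and lowest in the Cd74 cluster, at 326 and 308 CPM. Lamp3 had the same order, with 623 and 577 CPM in the Scd1 cluster and 523 and 481 CPM in the Cd74 cluster, and so had Lpcat1, with 630 and 527 CPM and with 559 and 433 CPM. Slc34a2 was also lowest in the Cd74 cluster, at 1687 CPM in the tumor-bearing library against 1854 in the control library, and stood at 2132 and 2383 CPM in the Cxcl1 cluster and 2205 and 2369 CPM in the Scd1 cluster.

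Ctsh, the cysteine protease, ran the other way. It was highest in the Cd74 cluster, at 1225 CPM (1205 to 1245) in the tumor-bearing library against 1092 CPM in the control library, and lowest in the Scd1 cluster, at 710 and 659 CPM. The ratio of the highest to the lowest cluster was 1.72 in the tumor-bearing library against 1.66 in the control library, the widest of the 8 genes in both. The same ratio was 1.33 and 1.398 for Abca3, 1.31 and 1.29 for Slc34a2, 1.19 and 1.20 for Lamp3, and 1.13 and 1.22 for Lpcat1. For Napsa it was 1.13 and 1.099, for Pla2g1b 1.14 and 1.13, and for Muc1 1.096 and 1.08. Of the surfactant protein genes, Sftpd shared the order of Ctsh, highest in the Cd74 and lowest in the Scd1 cluster, with a ratio of 1.22 in the tumor-bearing library against 1.23 in the control library. Droplets of the Scd1 cluster were shallower, with a median of 92.4% of the median depth of their own library, against 106% in the Cxcl1 and 103% in the Cd74 cluster, and levels varied with depth too. Abca3 stood at 543 CPM in the tumor-bearing library against 479 in the control library in AT2 cells of 2000 to 4000 UMIs, at 346 and 345 CPM in those of 8000 to 16000 UMIs, and at 420 and 389 CPM in those of 16000 or more. Muc1 stood at 479 and 486 CPM in cells of 2000 to 4000 UMIs and at 340 and 366 CPM in those of 8000 to 16000. Between the same bins Slc34a2 stood at 2239 and 2566 CPM and at 1981 and 2090 CPM, and Lpcat1 at 596 and 539 CPM and at 566 and 468 CPM. Pla2g1b in the control library was lower in the shallower cells, at 453 CPM against 533 CPM in the deeper ones. In the tumor-bearing library it stood at 519 CPM (472 to 570) and 553 CPM (546 to 560), with overlapping intervals, and at 503 CPM in cells of 16000 UMIs or more. The part of depth in the differences between clusters was not tested.

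**Figure D2:**
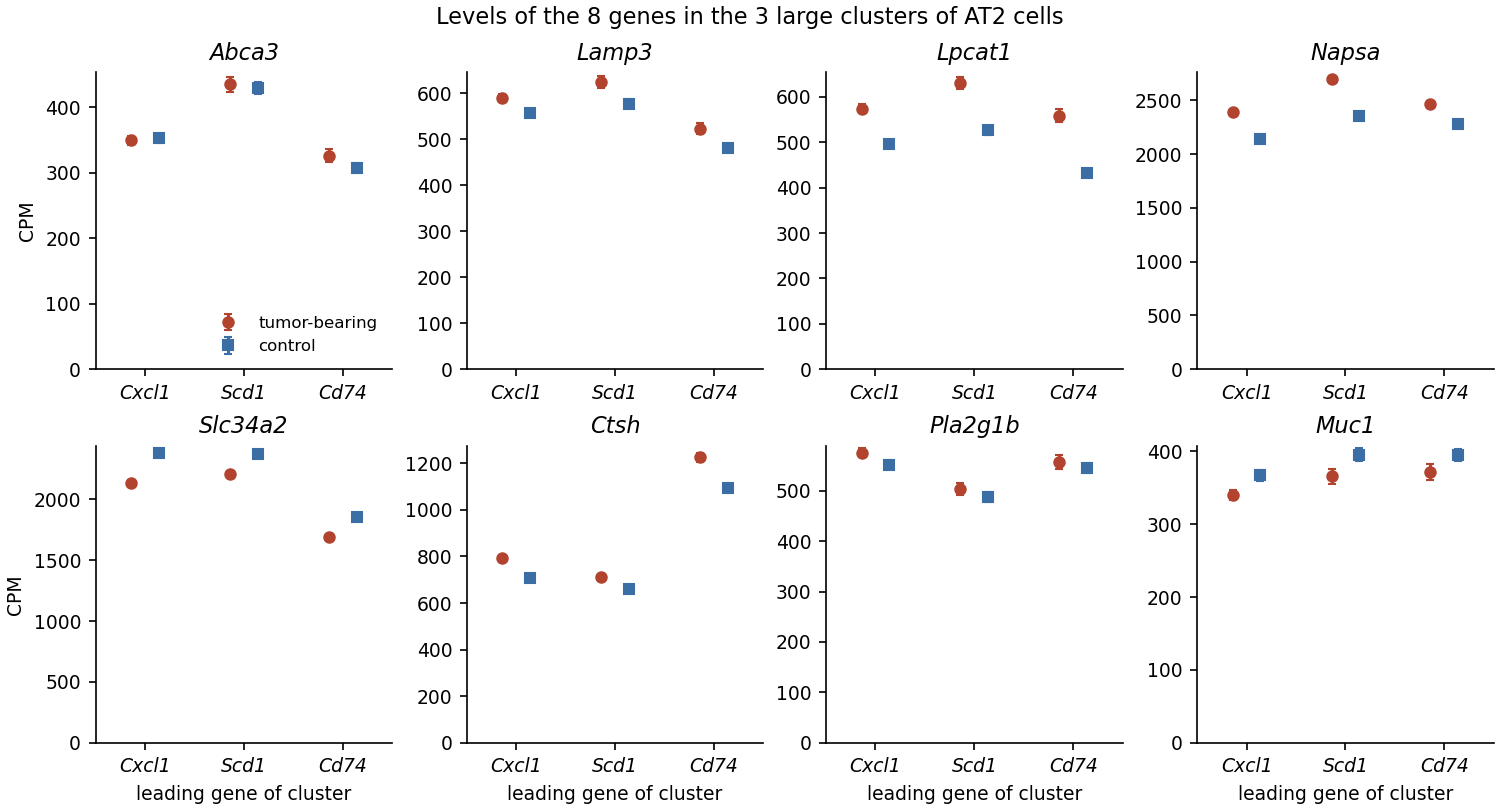
Levels of the 8 genes in CPM in the 3 large clusters of AT2 cells, named by their leading gene, with exact 95% Poisson intervals. Circles are the tumor-bearing and squares the control library. Ctsh is highest in the Cd74 cluster, at 1225 and 1092 CPM, where Abca3, Lamp3, Lpcat1 and Slc34a2 are lowest.

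The ratio of the libraries was also taken within each of these 3 clusters, which need not hold matched cells. Lpcat1 was 1.16-fold in the Cxcl1 cluster, 1.20-fold in the Scd1 cluster and 1.29-fold in the Cd74 cluster, where it passed the 25% limit, with an interval that ended at 1.33. In the Cd74 cluster 3.79% of all genes compared were higher by this limit and 5.32% lower. In the Cxcl1 cluster it was 3.72% and 4.06%, and in the Scd1 cluster 3.01% and 6.5%, with no member among them. Slc34a2 ran from 0.895-fold to 0.931-fold and Muc1 from 0.926-fold to 0.943-fold, with all intervals below 1. Napsa ran from 1.08-fold to 1.15-fold, Ctsh from 1.08-fold to 1.12-fold and Lamp3 from 1.06-fold to 1.09-fold, with all intervals above 1. Pla2g1b ran from 1.02-fold to 1.04-fold, with an interval of 0.990 to 1.05 in the Cd74 cluster that included 1. Abca3 ran from 0.992-fold to 1.06-fold on both sides of 1. The ratio of Ctsh was larger in each cluster (1.12, 1.08 and 1.12) than over all AT2 cells (1.05). So were the ratios of the 4 surfactant protein genes, with Sftpd at 1.14, 1.15 and 1.14, against 1.11. The Cd74 cluster made up 19.3% of AT2 cells in the tumor-bearing library against 27.4% in the control library. The part of these shares in the ratios was not tested. Smaller clusters that also carried genes of other cells held 543 AT2 cells of the tumor-bearing library against 198 of the control library where Inmt and Mfap4, known from fibroblasts, led, and 82 against 209 where Pf4, a platelet gene, led. There Lpcat1 had ratios of 1.22 and 1.22, and Ctsh had 1.099 in the Inmt and 0.874 in the Pf4 cluster.

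**Figure D3:**
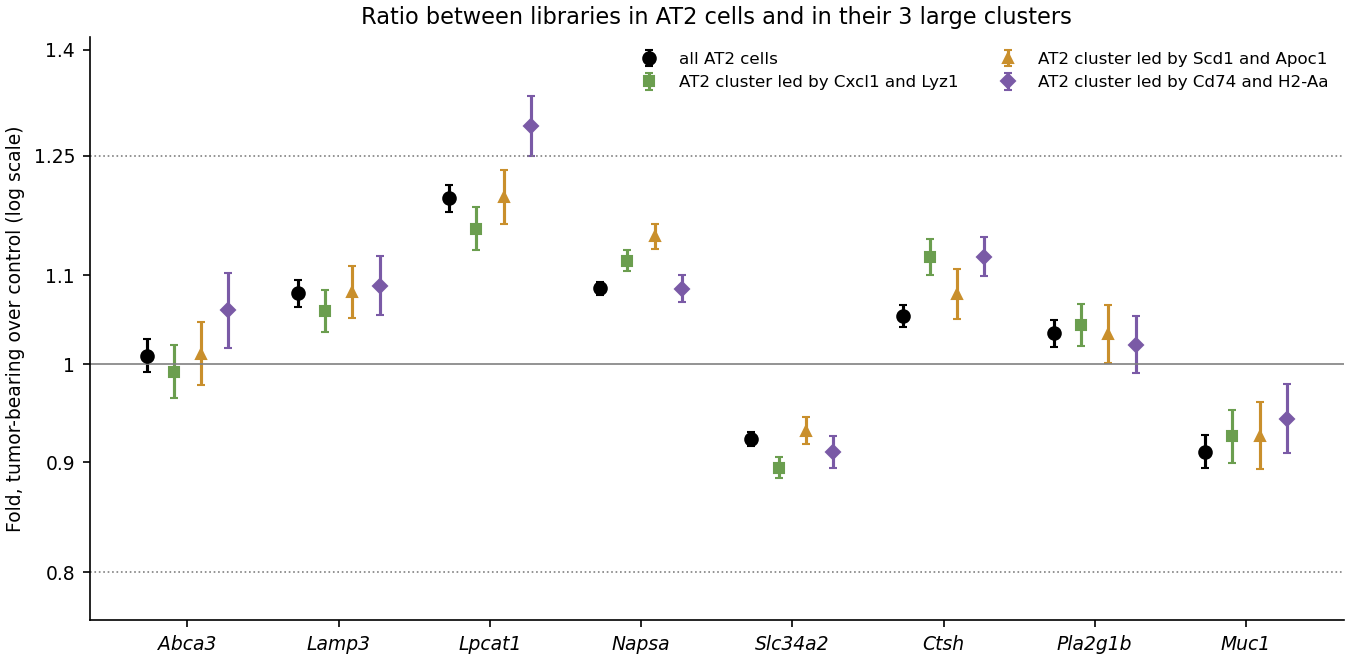
Ratio of tumor-bearing over control CPM for each gene, on a log axis, in all AT2 cells (black) and in their 3 large clusters, with 95% conditional binomial intervals. The solid line marks 1 and the dotted lines 25% above and 20% below it. Lpcat1 in the Cd74 cluster, at 1.29, is the only point past a dotted line.

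Outside AT2 cells, the cell types with at least 50 droplets in each library were AT1-like, ciliated-like, club-like and endothelial-like. AT1 cells are the thin cells of gas exchange, and ciliated and club cells line the airways. All of them carried some Sftpc, which is known from AT2 cells, so the level of each gene is set beside the share of the AT2 level that Sftpc itself reached in the same droplets. That share was 43.5% in the tumor-bearing library against 42.9% in the control library in AT1-like droplets, 22.4% and 29.0% in ciliated-like, 10.9% and 17.3% in club-like, and 11.8% and 10.5% in endothelial-like droplets. The share of free RNA estimated from Scgb1a1 was 5.53% in the tumor-bearing library against 17.9% in the control library, and its part in the levels and detection shares of these types was not tested. Of the AT1-like droplets, 32.3% and 31.7% met the AT2 rule themselves. Lamp3, Napsa and Slc34a2 lay near that share, between 0.916 and 1.13, 0.880 and 1.06, and 0.834 and 1.19 times it over the 4 types and both libraries. At clustering resolution 1.0, in club-like droplets, Lamp3 was lower, at 0.881 times the share in the tumor-bearing library against 0.716 in the control library, as was Slc34a2, at 0.843 and 0.740 times. Of the 32 pairs of member and cell type, 10 lay at 1.5 times the share of Sftpc or more in both libraries, a factor chosen after the values were seen. Of 7136 pairs of gene and cell type, over all genes but Sftpc with at least 50 CPM in AT2 cells of either library, 91.3% did. A level above the share of Sftpc was therefore common among genes and does not set a member apart. At clustering resolution 1.0 the count of members was 7, against 85.7% of the pairs over all genes, since in club-like droplets Abca3 (1.92 and 1.18 times), Ctsh (2.35 and 1.48 times) and Pla2g1b (1.44 and 1.45 times) did not reach the factor in both libraries.

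Of the members, Muc1 stood furthest from Sftpc. In club-like droplets it reached 201 CPM in the tumor-bearing library against 235 CPM in the control library, which was 57.9% (54.7 to 61.2) and 61.5% (54.8 to 68.8) of its AT2 level, or 5.31 and 3.56 times the share of Sftpc. In club-like droplets the 6 basal cell markers summed to 234 CPM in the tumor-bearing library against 1530 CPM in the control library. At clustering resolution 1.0, where a basal-like cluster of 37 and 53 droplets stood apart, Muc1 in club-like droplets lay at 4.24 and 1.99 times the share of Sftpc. In the other 3 types it stayed between 0.904 and 1.18 times that share. Its level, from high to low, was ordered AT2-like, club-like, AT1-like, ciliated-like and endothelial-like in both libraries, with no overlap between the intervals of neighbours. Abca3, Lamp3 and Pla2g1b had the order AT2-like, AT1-like, ciliated-like, club-like and endothelial-like in both, in which the last pair overlapped for Abca3 and Lamp3. Club-like droplets were deeper in the tumor-bearing library, with a median of 21275 UMIs against 8423 in the control library.

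Ctsh exceeded the share of Sftpc in all 4 types. In AT1-like droplets it stood at 684 CPM in the tumor-bearing library against 920 CPM in the control library, or 80.5% (76.7 to 84.4) and 114% (110 to 118) of its AT2 level. It was thus below AT2-like droplets in the tumor-bearing library and above them in the control library. In ciliated-like droplets it stood at 583 and 509.8 CPM, 3.06 and 2.18 times the share of Sftpc, in club-like droplets at 247 and 283 CPM, 2.67 and 2.03 times, and in endothelial-like droplets at 158 and 145 CPM, 1.58 and 1.71 times. Ctsh is a lysosomal protease also known from macrophages. Of 8 macrophage and monocyte markers, 1, Csf1r, reached 20 CPM in AT1-like droplets, and Mrc1, Marco, Ear2, C1qa and C1qb were at 0 in both libraries. The 8 markers summed to 51.0 CPM in the tumor-bearing library against 47.5 CPM in the control library in AT1-like droplets, and to 7.74 and 7.73 CPM in AT2-like droplets. The 8 endothelial markers in AT1-like droplets summed to 753 CPM in the tumor-bearing library against 195 CPM in the control library. The part of macrophage or endothelial RNA in the level of Ctsh was not tested.

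Abca3 exceeded the share of Sftpc in all 4 types, by 1.37 and 1.29 times in AT1-like droplets and by 1.59 times or more in the other 3. It stood at 176 CPM in the tumor-bearing library against 167 CPM in the control library in ciliated-like droplets (2.15 and 1.60 times the share), at 90.2 and 102 CPM in club-like droplets (2.27 and 1.64 times), and at 77.2 and 60.5 CPM in endothelial-like droplets (1.80 and 1.59 times). The last of these rested on 143 UMIs in the tumor-bearing library against 10 in the control library, and the interval of the control value, 0.765 to 2.93 times, included 1. Lpcat1 in endothelial-like droplets stood at 132 CPM in the tumor-bearing library against 90.7 CPM in the control library, 1.94 (1.70 to 2.20) and 1.78 (0.998 to 2.94) times the share, from 245 and 15 UMIs. Pla2g1b in club-like droplets stood at 93.3 CPM in the tumor-bearing library against 139 CPM in the control library, 1.57 and 1.53 times the share. The endothelial-like class is outside the stated sort, and 1 of its 2 clusters had a median depth of 34.1% of that of its libraries.

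**Figure D4:**
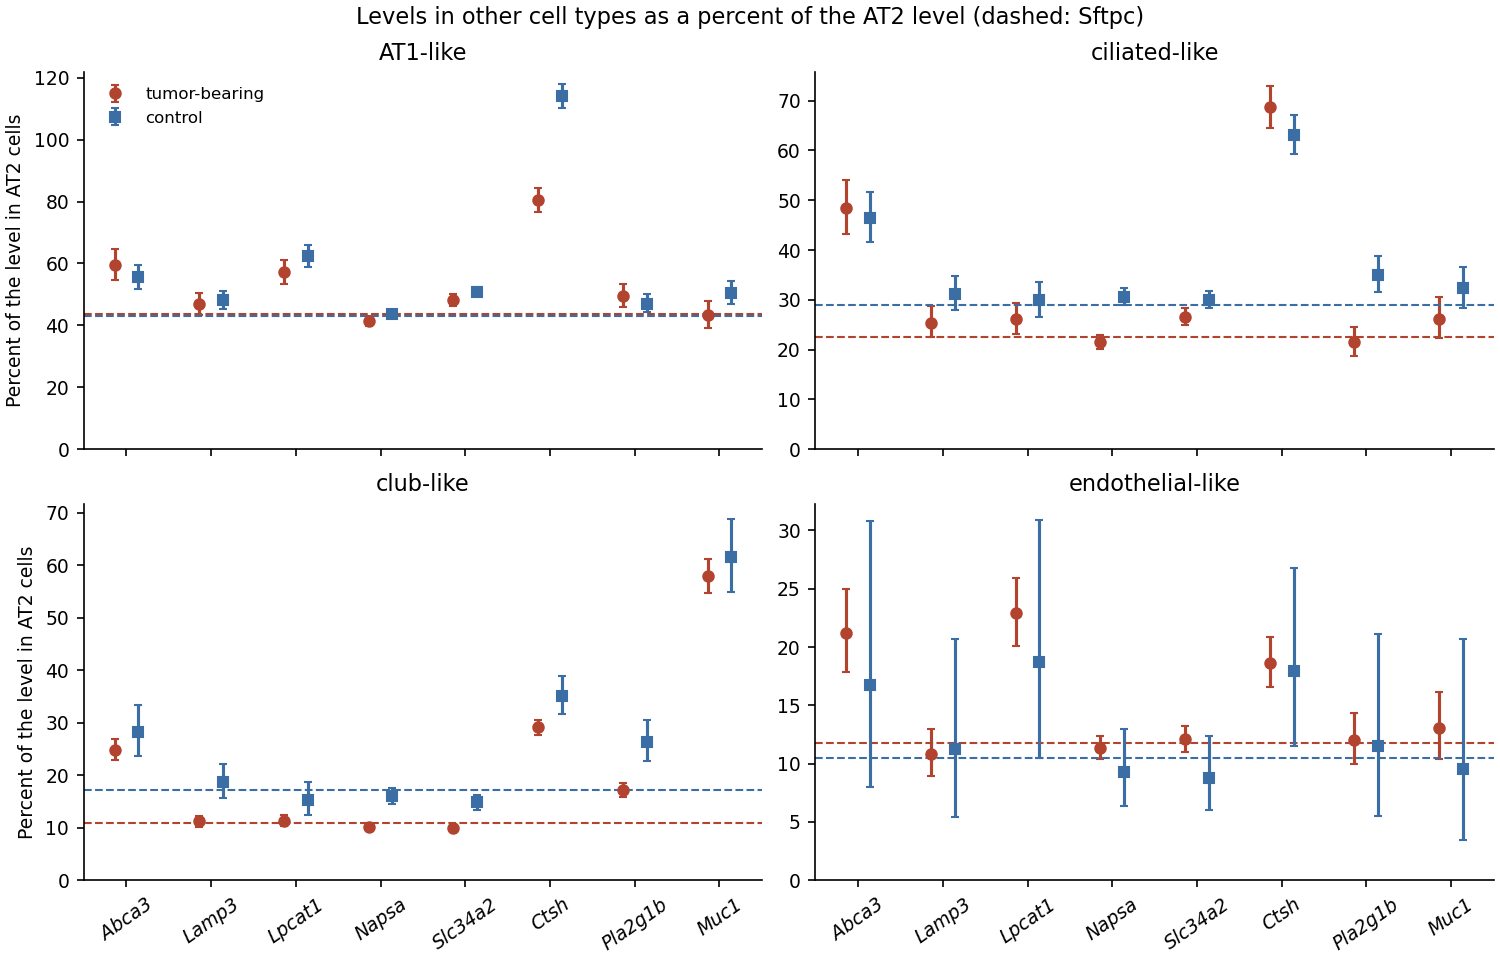
Level of each gene in 4 cell types as a percent of its level in AT2 cells, with 95% conditional binomial intervals. Circles are the tumor-bearing and squares the control library, and the dashed lines in the same colors give the percent that Sftpc reached. Ctsh and Abca3 in all 4 types and Muc1 in club-like droplets (57.9% and 61.5%) lie above the dashed lines. So do Lpcat1 in AT1-like and endothelial-like droplets and Pla2g1b in club-like droplets. Napsa, Lamp3 and Slc34a2 lie near the lines. Over all genes, 91.3% of pairs of gene and cell type lay at 1.5 times the share of Sftpc or more in both libraries.

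Shares of cells with at least 1 UMI were compared after each AT2 cell was thinned to 2000 UMIs. Napsa was found in 97.9% of AT2 cells of the tumor-bearing library against 97.0% of the control library, and Slc34a2 in 95.4% and 96.9%. Ctsh was found in 76.1% and 74.6%, Lamp3 in 66.2% and 64.3%, Pla2g1b in 63.5% and 62.4%, and Abca3 in 50.2% and 50.9%. Lpcat1 was found in 65.8% (64.6 to 66.9) of AT2 cells of the tumor-bearing library against 60.1% (59.2 to 61.1) of the control library, and Muc1 in 49.5% (48.3 to 50.7) and 53.5% (52.5 to 54.5), in the same direction as their CPM. Endothelial-like droplets, which are outside the stated sort, numbered 501 in the tumor-bearing library against 55 in the control library. The control shares thus rest on few droplets. The shares there were 22.8% and 34.5% for Napsa, 19.0% and 25.5% for Slc34a2, 16.8% and 16.4% for Lpcat1, and 16.4% and 14.5% for Ctsh. They were 11.4% and 9.09% for Abca3, 8.38% and 9.09% for Pla2g1b, 5.79% and 10.9% for Lamp3, and 4.79% and 7.27% for Muc1. The median depths before thinning were 8976 and 6939 UMIs in AT2 cells and 3082 and 2640 in endothelial-like droplets. Unthinned, between 88.1% and 99.9% of AT2 cells held a UMI of each gene, so a cell without 1 is not shown to lack expression.

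How far AT2 cells differed among themselves was read from the variance over the mean of the thinned UMIs, which is 1 for counting noise alone. It was 1.64 in the tumor-bearing library against 1.58 in the control library for Napsa, 1.55 and 1.60 for Slc34a2, and 1.495 and 1.45 for Ctsh. The medians over the 50 genes of nearest mean were 1.18 and 1.18, 1.16 and 1.18, and 1.103 and 1.104. Of these 50 genes, 41 and 40 lay below Napsa, 42 and 39 below Slc34a2, and 43 and 43 below Ctsh. For the other 5 genes the ratio lay between 1.07 and 1.15. There the medians over the 50 genes lay between 1.05 and 1.09, and 26 to 38 of the 50 lay below the member. Napsa ranged from 2 UMIs at the 10th percentile to 9 at the 90th in the tumor-bearing library, and the control library had 1 and 8.

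Across AT2 cells thinned to 2000 UMIs, correlations between members were weak. Of 28 pairs, 1 had a Pearson correlation of at least 0.1 in both libraries, Lpcat1 with Slc34a2 at 0.110 in the tumor-bearing library against 0.112 in the control library. Of 24976 pairs of the 224 genes with levels in the same range, 1.8% did. Another pair was at -0.1 or lower in both, Slc34a2 with Ctsh at -0.114 and -0.117, against 0.02% of the pairs of genes in the same range. The median over the pairs was 0.013 in the tumor-bearing library against 0.001 in the control library. Abca3, Lamp3, Lpcat1 and Slc34a2 had positive values with each other, between 0.044 and 0.112. The points are 6729 and 10008 cells that share a library, a depth and the sum of all other genes. At this depth correlations this weak are no finding. In cells thinned to 5000 UMIs 4 of the 28 pairs passed 0.1, against 10.3% of the pairs of genes in the same range. Slc34a2 with Ctsh stood there at -0.205 in the tumor-bearing library against -0.191 in the control library. Of the pairs of genes in the same range, 0.436% were at -0.1 or lower at that depth. Within the Scd1 cluster, at 2000 UMIs, Slc34a2 with Ctsh stood at -0.055 and -0.009.

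Napsa had its 3 highest correlations with surfactant protein genes. Its correlation with Sftpb, whose precursor it is known to cleave, was 0.297 in the tumor-bearing library against 0.278 in the control library, with Sftpa1 0.183 and 0.189, and with Sftpd 0.167 and 0.166. Ctsh was nearest to Sftpd (0.177 and 0.158), to Cd74, the MHC class II invariant chain (0.123 and 0.159), and to Anxa5, an annexin (0.147 and 0.107). Slc34a2 was nearest to mt-Co1, a mitochondrial gene of the respiratory chain (0.098 and 0.143), to Scd1 (0.104 and 0.134) and to Npc2, a lysosomal cholesterol-binding protein (0.132 and 0.104). Lpcat1 was nearest to Npc2, Scd1 and Fasn, the fatty acid synthase, at 0.059 to 0.081 over both libraries. Lamp3 was nearest to Cxcl15, a lung chemokine (0.086 and 0.078), Lrg1 and Fabp5, and Pla2g1b to Sftpa1 (0.078 and 0.0997), Cbr2 and Cox6a2. Abca3 was nearest to the mitochondrial genes mt-Co1 (0.121 and 0.135), mt-Co3 and mt-Atp6, and Muc1 to mt-Co1 (0.071 and 0.047), mt-Cytb and mt-Nd1. These are the 3 genes of highest mean correlation for each member among those of at least 50 CPM, as a description. Unlike the pairs of members, these ranks were not set against genes with levels in the same range. Sftpb, Sftpa1 and Sftpd all had higher levels than Napsa in AT2 cells of both libraries. Sftpd, the lowest of them, had 5251 CPM (tumor-bearing) and 4745 CPM (control). The part of level in these ranks was not tested, nor was a link to precursor cleavage. At clustering resolution 1.0 an AT2-like cluster led by mitochondrial genes held 188 and 406 AT2 cells. Its median depth was 40.0% of that of its libraries, and Abca3 and Muc1 were higher in shallow cells, as given above. The part of such cells in the mitochondrial correlations was not tested.

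**Figure D5:**
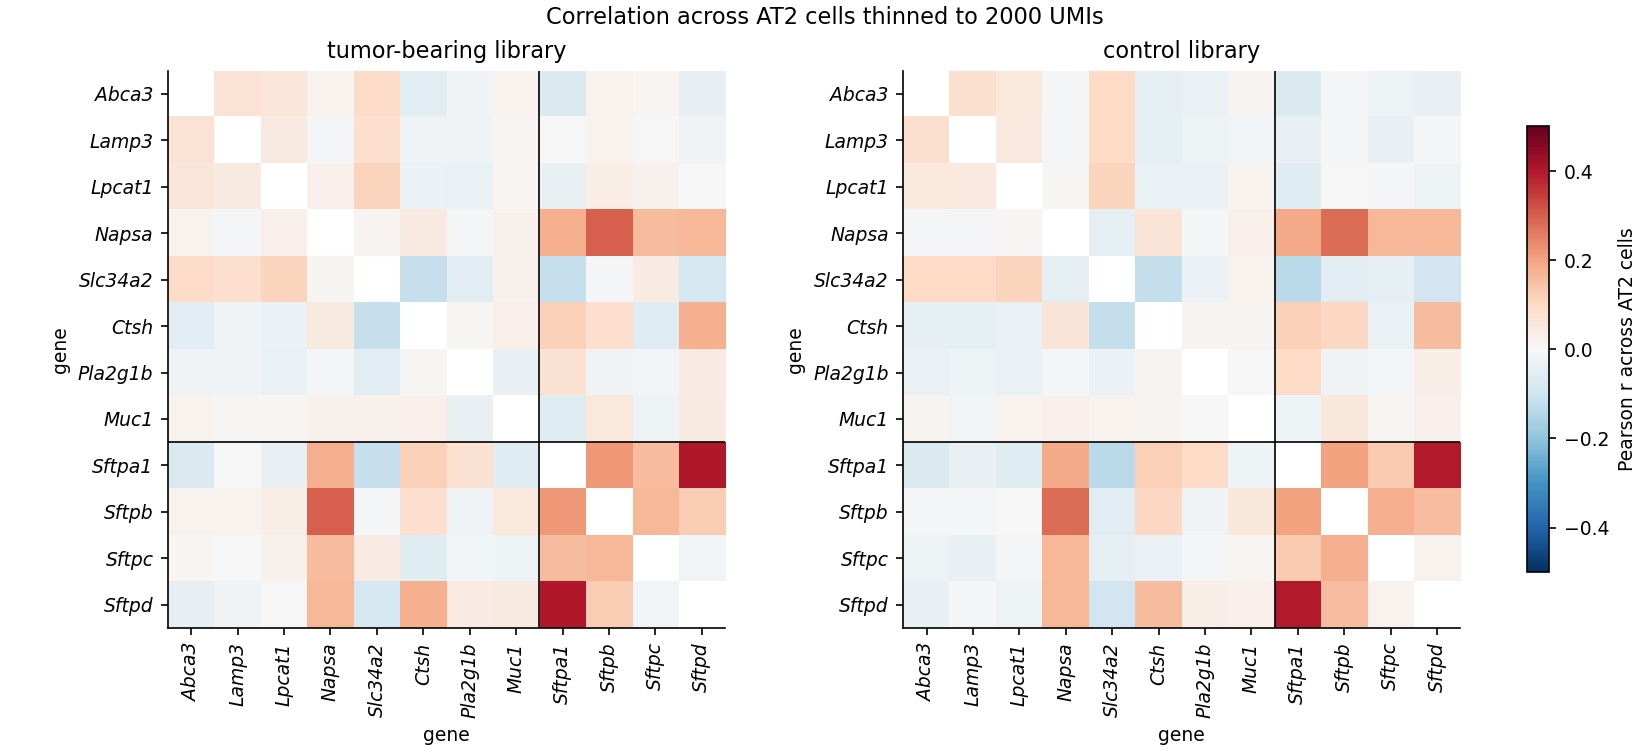
Pearson correlation across AT2 cells thinned to 2000 UMIs, for the 8 genes and 4 surfactant protein genes, in the tumor-bearing (left) and control (right) libraries. Black lines set the surfactant protein genes apart. Napsa with Sftpb is the strongest pair of a member and a surfactant protein gene, at 0.297 and 0.278, and pairs of members lie between -0.117 and 0.112.

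Other genes of the same pathways were read from 8 lists, with 136 genes in the files, by the same rule, against the same 3.92% of genes higher and 3.31% lower. Of 8 enzymes and carriers of surfactant phospholipid synthesis with at least 50 CPM in either library, 0 were higher and 0 lower. The same held for 6 lysosomal membrane proteins, 10 subunits of the proton pump that acidifies lysosomes and lamellar bodies, and 5 genes of exocytosis and surfactant turnover. Of 9 lysosomal hydrolases compared, 1 was lower, Smpd1, the acid sphingomyelinase, with 45.9 CPM in the tumor-bearing library against 57.9 CPM in the control library, 0.792-fold (0.755 to 0.831). Of 5 transcription factors compared, 1 was lower, Srebf1, a regulator of lipid synthesis genes, with 43.5 CPM in the tumor-bearing library against 64.1 CPM in the control library, 0.678-fold (0.647 to 0.711). The median log2 ratio was 0.03 for phospholipid synthesis, 0.07 for the hydrolases, -0.05 for the membrane proteins, -0.04 for the pump, 0.01 for exocytosis and -0.26 for the transcription factors. All 28 genes of the list for biogenesis of lysosome-related organelles were in the files, and 0 of them reached 50 CPM in AT2 cells of either library, so the rule left them out of the comparison.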

How the data were processed

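Per the labels' protocols and the series design, lungs were digested, CD45- SftpC+ cells were sorted to a stated purity above 95%, and 10x libraries were sequenced and processed with Cell Ranger 2.1.0. Per the submitters' processing notes the build was mm10, with Seurat and R 3.5.3 named in roles not given. The deposited matrices hold whole-number UMI counts for all 737280 barcodes of each library, with no scaling and before cells were called. No cell annotation was used here.

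Classes followed the limits given above (at least 2000 UMIs, Sftpc at least 15% of UMIs, empty droplets of 1 to 100 UMIs). CPM were made from the UMIs summed over each class, all genes in the total, with Poisson intervals for levels, Clopper-Pearson intervals for shares and conditional binomial intervals for ratios, at 95%. Reads of a gene with a near-identical copy could not be told apart from its copy. Clustering used scanpy 1.11.5 and leidenalg 0.10.2 on 2000 variable genes chosen with library as batch, 30 components, 15 neighbours and resolution 0.5. Clusters were named from 17 marker lists. A cluster with AT2 markers raised beside another list stayed unnamed, a rule set after the values were seen, and names may differ from those of the submitters. Scrublet's automatic limit marked 0 and 1 barcodes, so it did not work, and doublets were kept, with removal of the 537 and 969 highest scores as an alternative. Mixed droplets therefore remain. Members, pathway lists and tests were chosen with earlier results of these data known. Named are the members, the 3 genes most correlated with each, the 4 surfactant protein genes, and up to 2 genes per list and direction past the 25% or 20% limit. Coordinates come from GENCODE vM21. Calculations were tested on simulated data. Alternatives were other limits on UMIs and Sftpc, other denominators, mitochondrial and doublet filters, subtraction of free RNA, other fold limits and other cluster settings.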

Additional observations from a re-analysis of the deposited data

Results flagged for a closer look

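The following ratios of tumor-bearing over control differed in side from those of AT2 cells, with both intervals apart from 1. None of these differences was tested, since each group had 1 library. In AT1-like droplets Ctsh had a ratio of 0.743 (0.702 to 0.786), against 1.05 in AT2 cells, where the ratio of Sftpc in AT1-like droplets was 1.02. In ciliated-like droplets Napsa had a ratio of 0.762 and Pla2g1b of 0.633, against 1.08 and 1.03 in AT2 cells, and Sftpc had 0.778 there. In club-like droplets Lamp3 had a ratio of 0.646, Napsa of 0.690, Ctsh of 0.874 and Pla2g1b of 0.672, against 1.08, 1.08, 1.05 and 1.03 in AT2 cells, and Sftpc had 0.633 there.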

How the results depend on the processing

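With 1 library per group no replicate could be left out. No paired analysis was possible because each group had 1 library and no test was run. In AT2 cells, over 22 alternatives, the log2 ratio of Lpcat1 stayed between 0.19 and 0.37, Lamp3 between 0.08 and 0.16, Napsa between 0.02 and 0.20 and Ctsh between 0.05 and 0.19, all above 0, and Slc34a2 between -0.18 and -0.06 and Muc1 between -0.15 and -0.08, all below 0. Pla2g1b reversed, to -0.14, and Abca3 was lowest, at -0.13, when AT2 cells with over 1% of UMIs from another cell type's markers were left out. That kept 440 of 6729 cells of the tumor-bearing library against 2901 of 10008 of the control library. There the median of the members was -0.030. The median was 0.11 after subtraction of the median of all genes, and 0.10 in the Cd74 cluster, where 1 member, Lpcat1, passed the 25% limit, against 3.79% of genes. With a limit of 1.1-fold 1 member was higher. Members at least 2-fold higher in AT2 than in non-AT2 cells numbered 7, but 6 with at least 5000 UMIs per cell (without Muc1), against 4.46% of genes, 0 with Sftpc at 25% of UMIs or more, against 0% of genes, which puts AT2 cells of 15% to 25% into the other class, and 1 with a limit of 4-fold, against 0.563% of genes. Pairs of members with a correlation of at least 0.1 in both libraries numbered 1, but 4 at 5000 UMIs and 7 unthinned, against 10.3% and 24.2% of the pairs of genes with levels in the same range. They numbered 0 with 1000 UMIs of genes other than Sftpc, with Sftpc at 25% or more, and within the Cxcl1 and the Cd74 cluster, against 0.14%, 0.516%, 0.348% and 0.893% of those pairs. Pairs at -0.1 or lower numbered 1, but 0 with 1000 UMIs of genes other than Sftpc, with Sftpc at 25% or more, and within the Cxcl1 and the Scd1 cluster, against 0%, 0.004%, 0.00801% and 0.052% of those pairs. The cause was not tested except where the construction shows it. At Leiden resolution 1.0, 7 of the 32 pairs of gene and cell type lay at 1.5 times the share of Sftpc or more, against 10 at resolution 0.5, and of the pairs over all genes 85.7% did, against 91.3%. Alternatives added after the data were seen were leaving out AT2 cells of clusters with fibroblast, platelet or red cell genes and keeping AT2 cells of 4000 to 16000 UMIs, and of the members Abca3 changed side, to -0.0042, in cells of 4000 to 16000 UMIs. In AT2 cells of 16000 UMIs or more, which were no alternative, Slc34a2 stood at 2180 CPM in the tumor-bearing library against 2168 in the control library. Ctsh there stood at 827 CPM against 893 CPM. Both thus had the other side than over all AT2 cells, with overlapping intervals, from 335 and 87 cells. Lamp3, Lpcat1, Napsa and Muc1 kept their side there. Depth limited the endothelial-like values of the control library, from 55 droplets. Genes under 50 CPM were left out by rule.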
